A study of Pimephales promelas with 51 samples.

Results

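The hypothalamus-pituitary-interrenal axis is the stress axis of fish. In fathead minnow larvae exposed for 24 h to dexamethasone or fluticasone propionate, 154 tests covered 7 genes of this axis and of cortisol reception and conversion. None passed an adjusted p of 0.05, where 0.387% of all gene tests in the same comparisons did. The largest estimated differences from DMSO were lower levels of the enzyme gene hsd20b2 at the highest concentration of each compound. The genes were chosen by name, as the glucocorticoid receptor nr3c1, the mineralocorticoid receptor nr3c2, the cortisol-converting enzymes hsd11b2 and hsd20b2, and the axis genes crha, crhb, crhbp, crhr1, pomca and mc2r. These are 10 of the 36695 genes in the count tables. A gene counted as measured when a row carried its symbol and at least 1 library held 10 or more reads, which left 7 genes measured and 3 not measured.

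In the fish stress axis, neurons of the hypothalamus release corticotropin-releasing hormone, encoded by crha and crhb. The hormone acts through receptors such as crhr1 on pituitary corticotropes, and the product of crhbp binds it. Corticotropes cut the pomca product into corticotropin, which acts through the melanocortin receptor mc2r on interrenal cells, the counterpart of the mammalian adrenal cortex, and these cells make cortisol. Cortisol binds the receptors encoded by nr3c1 and nr3c2, and in vertebrates it feeds back on the hypothalamus and pituitary. The hsd11b2 enzyme oxidises cortisol to cortisone, and in zebrafish the hsd20b2 enzyme reduces cortisone further towards excretion.

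The larvae were whole fathead minnows (Pimephales promelas, a North American freshwater fish common in toxicity tests) of the strain GLTED-Duluth-wt, aged 5 to 6 days after fertilisation, with sex not determined. Dexamethasone, a synthetic corticosteroid drug, was given at 8 labelled concentrations of 0.008, 0.025, 0.08, 0.25, 0.8, 2.5, 8 and 25 µM. Fluticasone propionate, a synthetic corticosteroid that carries a propionate ester, was given at 8 labelled concentrations of 0.003, 0.006, 0.01, 0.019, 0.034, 0.06, 0.1 and 0.19 µM. Larvae with DMSO alone were the negative controls, and each of the 17 groups had 3 libraries, lettered A, B and C. Measured concentrations were 0.0066 µM in the lowest and 23.6726 µM in the highest dexamethasone group, and 0.0019 µM and 0.0597 µM for fluticasone propionate. Groups are named here by their labelled concentration. The RNA came from pooled homogenates, and nothing in the labels tells whether libraries A, B and C of a group came from separate vessels, so a p-value reflects library-to-library spread, which may be technical.

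Reads assigned to genes numbered 1316614 to 2097358 per library, with a median of 1618729. Levels are given in CPM, a gene's share of the reads in genes, scaled by TMM factors over all 51 libraries, and each library was made from the 3′ ends of messenger RNA. Reads assigned to no counted feature, called reads outside genes here, made up 22.6 to 33.62% of all reads. That share was over 30% in 7 libraries, of which 6 had dexamethasone, 1 had fluticasone propionate and none had DMSO. Every fold change is a log2 value ± its standard error, and adjusted p-values come from the quasi-likelihood test of edgeR over all genes tested. The co-chaperone gene fkbp5, induced by the glucocorticoid receptor, was picked from earlier results on these libraries, so its response is no independent check. Its group means lay below that of DMSO from 0.008 to 0.25 µM dexamethasone (119.0, 111.5, 87.5 and 85.1 CPM). They also did from 0.003 to 0.034 µM fluticasone propionate (74.2 to 124.0 CPM). At the highest concentrations fkbp5 averaged 627.6 ± 17.5 CPM (25 µM dexamethasone) and 363.7 ± 35.9 CPM (0.19 µM fluticasone propionate), against 128.2 ± 24.7 CPM in DMSO (SD, n = 3 each). These are log2 fold changes of 2.29 ± 0.20 for dexamethasone (adjusted p = 1.74e-07) and 1.498 ± 0.25 for fluticasone propionate (adjusted p = 0.0109), and the fluticasone propionate value was no longer called without replicate C of that group (1.43), replicate A of DMSO (1.44) or replicate C of DMSO (1.42).

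Of 56 tests of the 7 genes in the dexamethasone groups against DMSO, none was called, where 0.517% of all gene tests were called. For fluticasone propionate against DMSO none of 56 was called, against 0.0427% of all gene tests. The slopes over concentration gave no call among 7 genes for dexamethasone, where 2.16% of genes were called, and none among 7 for fluticasone propionate, where 1.58% were called. At an unadjusted p under 0.05 the counts were 3 of 56 and 2 of 56 against DMSO, set against 9.18% and 5.17% of all gene tests, and 2 of 7 in each trend, set against 11.4% of genes in both. DESeq2 also called none of those for which it gave an adjusted p. The lowest adjusted p of the edgeR tests was 0.123, for the slope of hsd20b2 over dexamethasone. In the 56 dexamethasone comparisons of the 7 genes, every library lay above DMSO in 8 and below it in 2. Of all gene comparisons with dexamethasone, 7.59% and 7.68% were of these kinds. For fluticasone propionate the counts were 3 and 2 of 56, where 5.45% and 5.48% of all gene comparisons were. All these comparisons share the 3 DMSO libraries. Whole larvae hold few cells of each stress axis tissue, and fewer cells of a type cannot be told apart from less RNA per cell in these libraries.

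**Figure D1:**
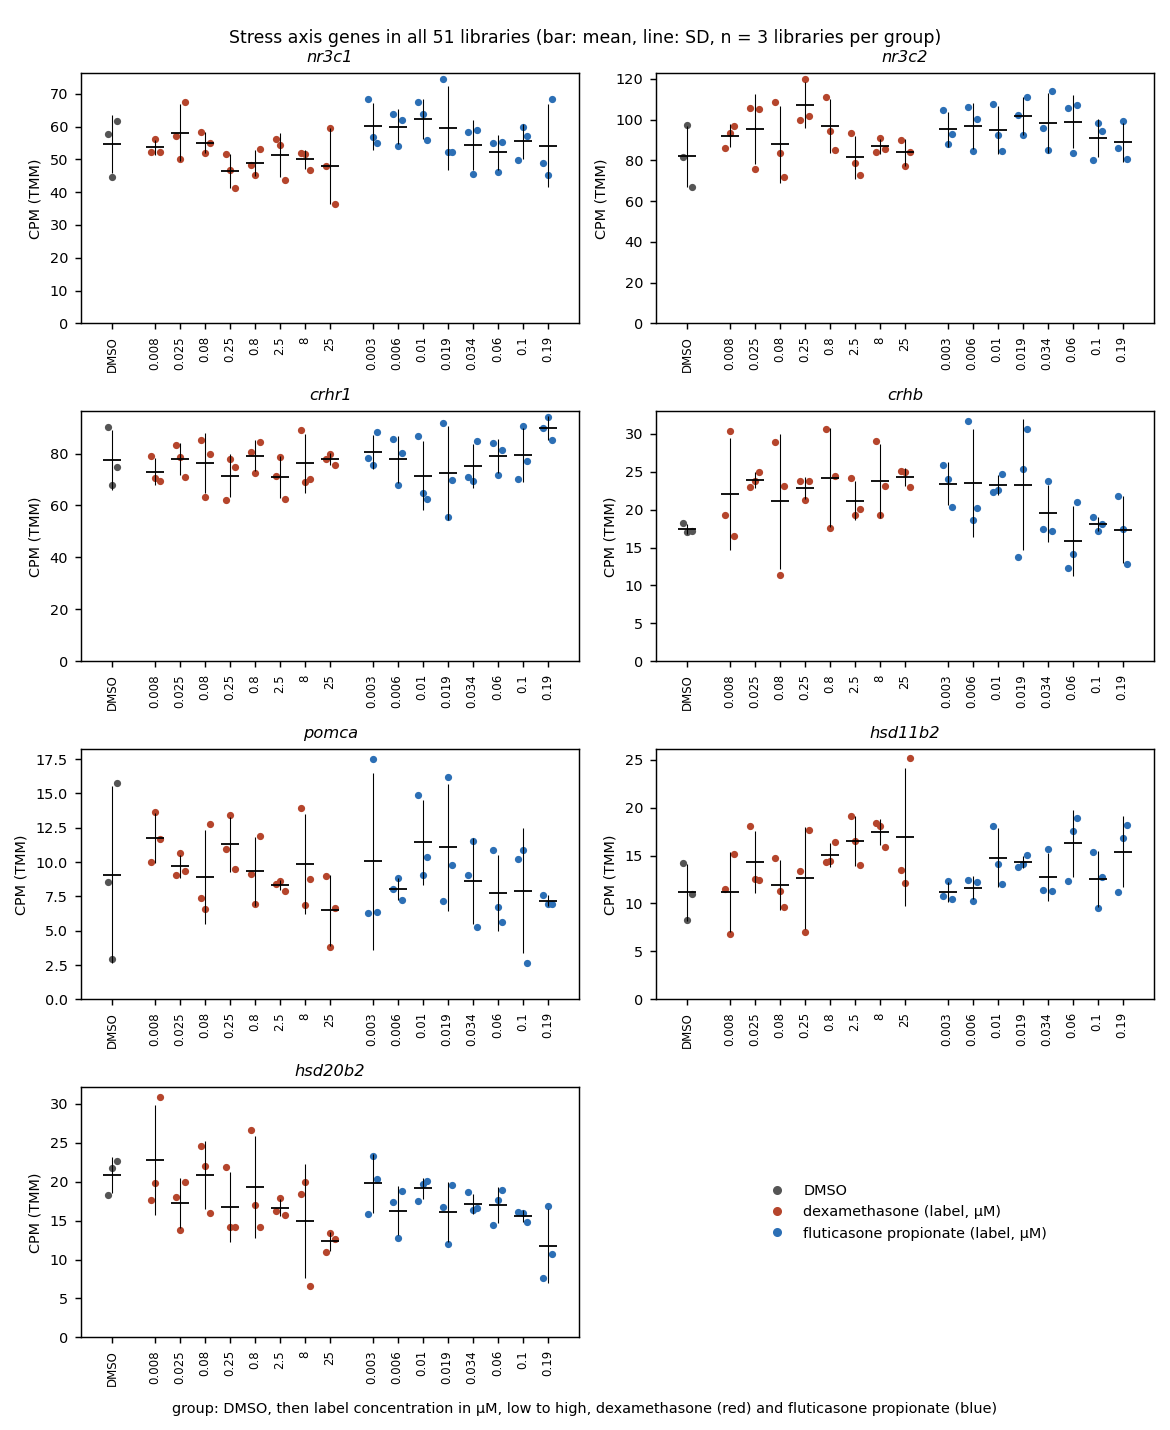
Each point is 1 library's level in CPM on a linear axis from 0, for the 7 measured genes, with DMSO at the left and then 8 label concentrations in µM of dexamethasone and of fluticasone propionate, low to high; black bars are means and vertical lines SDs (n = 3 libraries). In the hsd20b2 panel the 3 libraries at 25 µM dexamethasone lie between 11.01 and 13.4 CPM, below the DMSO libraries at 18.2 to 22.6 CPM. Over all concentrations, every library lay below DMSO in 7.68% of all gene comparisons with dexamethasone. In the nr3c1 and crhr1 panels the points at both highest concentrations overlap with DMSO.

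The glucocorticoid receptor gene nr3c1, whose product both drugs bind, had 49 to 128 reads per library. Its levels at 25 µM dexamethasone were 48.0, 59.4 and 36.3 CPM in replicates A to C, and at 0.19 µM fluticasone propionate 48.7, 45.4 and 68.5 CPM, against 57.6, 44.8 and 61.7 CPM in DMSO. All 3 groups overlapped, and each held a library under 46 CPM and one over 59 CPM. The log2 fold change from DMSO was -0.18 ± 0.17 at 25 µM dexamethasone (adjusted p = 0.801) and -0.01 ± 0.17 at 0.19 µM fluticasone propionate (adjusted p = 0.997). The 95% intervals ran from -0.51 to 0.15 and from -0.34 to 0.33, so the dexamethasone interval spans levels of 0.701 to 1.11 times DMSO and the fluticasone propionate interval 0.789 to 1.26 times.

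Over the dexamethasone series, low to high, nr3c1 averaged 53.6, 58.1, 55.1, 46.6, 48.9, 51.4, 50.04 and 47.9 CPM, with SDs of 2.36 to 11.6. Its fluticasone propionate means were 60.0, 60.0, 62.4, 59.6, 54.3, 52.1, 55.6 and 54.2 CPM, with SDs of 5.25 to 12.8, and DMSO averaged 54.7 ± 8.85 CPM (SD, n = 3). The 3 lowest of the 17 group means belonged to dexamethasone at 0.25, 25 and 0.8 µM and the 4 highest to fluticasone propionate at 0.01, 0.003, 0.006 and 0.019 µM. No 2 neighbours in that order differed by more than the larger of their SDs. The slope per log10 unit of concentration was -0.06 ± 0.04 for dexamethasone (adjusted p = 0.546) and -0.11 ± 0.07 for fluticasone propionate (adjusted p = 0.589).

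The mineralocorticoid receptor gene nr3c2, whose product also binds cortisol and in fish deoxycorticosterone, had 98 to 202 reads per library. It measured 90.1, 77.3 and 84.4 CPM at 25 µM dexamethasone and 86.3, 99.4 and 80.9 CPM at 0.19 µM fluticasone propionate, against 81.5, 97.2 and 67.2 CPM in DMSO. The DMSO libraries spanned a wider range than either treated group and enclosed all but 1 of the 6 treated values. Differences from DMSO were 0.03 ± 0.15 for dexamethasone and 0.11 ± 0.14 for fluticasone propionate on the log2 scale, with 95% intervals of -0.27 to 0.33 and -0.18 to 0.39. In the dexamethasone series nr3c2 averaged 92.2, 95.6, 88.0, 107, 96.9, 81.6, 86.9 and 83.9 CPM (SDs 3.50 to 18.9), and in the fluticasone propionate series 95.3, 96.9, 94.9, 102, 98.3, 98.9, 91.1 and 88.9 CPM (SDs 8.69 to 14.6). DMSO, at 82.0 ± 14.99 CPM (SD, n = 3), ranked 16 of 17, so 15 treated groups averaged above it, though all these comparisons share the same 3 DMSO libraries.

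The highest nr3c2 levels were in dexamethasone at 0.25 µM, with 99.7, 120.2 and 101.8 CPM, all above the DMSO libraries. That held in 7.59% of all gene comparisons with dexamethasone over all concentrations. The log2 fold change of nr3c2 at 0.25 µM was 0.38 ± 0.15 (unadjusted p = 0.0135, adjusted p = 0.32), where 11.2% of all genes had an unadjusted p under 0.05. Reads outside genes averaged 30.39% in that group (28.79 to 31.57%), against 25.02% in DMSO (24.51 to 25.33%), with no overlap between these libraries. With this share as a covariate the log2 fold change was 0.12 (adjusted p = 0.993). Without the libraries over 30%, which leaves 1 library in that group, it was 0.29. RLE scaling, no filter, a replicate block and the 6 compared libraries alone each gave 0.38. Their unadjusted p was 0.00503 to 0.0122 and their adjusted p 0.119 to 0.325. DESeq2 also gave 0.38 (unadjusted p = 0.0193, adjusted p = 0.343). At 0.019 µM fluticasone propionate nr3c2 differed from DMSO by 0.30 ± 0.14 (unadjusted p = 0.0354, adjusted p = 0.672). The value was 0.23 with the covariate and 0.25 without the libraries over 30%. RLE scaling, DESeq2, no filter, a replicate block and the 6 compared libraries alone gave 0.30 to 0.32 there.

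The enzyme gene hsd20b2 gave the largest differences from DMSO among the 7 genes at both highest concentrations. It was counted at 11.01, 13.4 and 12.6 CPM in dexamethasone at 25 µM and at 7.63, 16.9 and 10.7 CPM in fluticasone propionate at 0.19 µM, against 18.2, 21.8 and 22.6 CPM in DMSO. All 6 treated libraries lay below all 3 DMSO libraries, and the fluticasone propionate libraries were the more spread. Over all concentrations, 7.68% of gene comparisons with dexamethasone and 5.48% with fluticasone propionate had every library below DMSO. The log2 fold change was -0.76 ± 0.30 for dexamethasone (unadjusted p = 0.0137, adjusted p = 0.284) and -0.83 ± 0.26 for fluticasone propionate (unadjusted p = 0.00264, adjusted p = 0.288), so neither passed the test. Those 2 comparisons called 1.32% and 0.246% of genes. The intervals ran from -1.36 to -0.16 and from -1.35 to -0.30, and the counts behind them were 12 to 45 reads per library over the series. Without replicate B of 0.19 µM fluticasone propionate, the highest library of that group, the log2 fold change was -1.16 (adjusted p = 0.119), and over all alternatives its adjusted p ran from 0.119 to 0.627.

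Along the dexamethasone series hsd20b2 averaged 22.8, 17.3, 20.9, 16.8, 19.3, 16.7, 14.96 and 12.3 CPM (SDs 1.105 to 7.30). Along the fluticasone propionate series it averaged 19.8, 16.3, 19.1, 16.1, 17.2, 16.99, 15.6 and 11.7 CPM (SDs 0.720 to 4.70), and DMSO averaged 20.9 ± 2.33 CPM (SD, n = 3), the second highest mean of the 17 groups. The 3 groups with the lowest means were fluticasone propionate at 0.19 µM and dexamethasone at 25 and 8 µM. Every library lay below DMSO in 2 of 8 dexamethasone groups (2.5 and 25 µM) and in 2 of 8 fluticasone propionate groups (0.1 and 0.19 µM), where 7.68% and 5.48% of all gene comparisons were of that kind. The slope was -0.19 ± 0.06 per log10 unit for dexamethasone (unadjusted p = 0.00436, adjusted p = 0.123) and -0.27 ± 0.12 for fluticasone propionate (unadjusted p = 0.0223, adjusted p = 0.314). The dexamethasone slope was -0.10 without the replicate C libraries (adjusted p = 0.829), and the fluticasone propionate slope was -0.15 without the highest concentration (adjusted p = 0.796).

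The cortisol-oxidising enzyme gene hsd11b2 had 10 to 34 reads per library. It stood at 13.5, 12.1 and 25.2 CPM in dexamethasone at 25 µM and at 11.2, 16.9 and 18.2 CPM in fluticasone propionate at 0.19 µM, against 14.3, 8.24 and 10.97 CPM in DMSO. Replicate C at 25 µM was the highest of all 51 libraries, and both treated groups overlapped with DMSO. The log2 fold change was 0.56 ± 0.31 for dexamethasone (adjusted p = 0.572) and 0.46 ± 0.29 for fluticasone propionate (adjusted p = 0.776), with intervals of -0.07 to 1.19 and -0.11 to 1.03. Single libraries moved both values: the dexamethasone one was 0.20 without its replicate C and 0.38 without replicate B of DMSO, and the fluticasone propionate one was 0.28 without replicate B of DMSO and 0.70 without replicate A of DMSO. Over all 13 alternatives the dexamethasone value ran from 0.20 to 0.79. In both compounds' highest groups, then, hsd11b2 and hsd20b2 had estimates of opposite sign, and neither gene was called.

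Dexamethasone means of hsd11b2, low to high, were 11.2, 14.4, 11.9, 12.7, 15.1, 16.5, 17.4 and 16.9 CPM (SDs 1.21 to 7.16). Those of fluticasone propionate were 11.2, 11.7, 14.8, 14.3, 12.8, 16.3, 12.6 and 15.4 CPM (SDs 0.632 to 3.74), and DMSO, at 11.2 ± 3.01 CPM (SD, n = 3), ranked 16 of 17. The highest mean, at 8 µM dexamethasone, came from libraries of 18.4, 18.04 and 15.9 CPM, all above DMSO, with a log2 fold change of 0.63 ± 0.31 (unadjusted p = 0.0442, adjusted p = 0.544). That value was 0.49 with the covariate of reads outside genes (unadjusted p = 0.126) and 0.59 without the libraries over 30% (unadjusted p = 0.0814). DESeq2 gave 0.64 (unadjusted p = 0.0642). RLE scaling, no filter, a replicate block and the 6 compared libraries alone gave 0.64 to 0.65, with unadjusted p of 0.0334 to 0.0423. The slope over dexamethasone was 0.17 ± 0.07 per log10 unit (unadjusted p = 0.0141, adjusted p = 0.237), and that over fluticasone propionate 0.19 ± 0.12 (adjusted p = 0.605). Every library exceeded DMSO in the 0.8 and 8 µM dexamethasone groups, 2 of 8 comparisons, where 7.59% of all gene comparisons showed that. Summed CPM of markers of ionocytes, the ion-transporting cells of skin and gill, was 411.5 to 474.4 at 25 µM dexamethasone and 421.0 to 469.1 at 0.19 µM fluticasone propionate, against 369.5 to 456.7 in DMSO (7 of 9 markers matched a row, and 0 of these were without reads). Most of those reads came from atp6v1aa and ca2, and the median log2 fold change of the 7 markers was 0.05 at 25 µM dexamethasone and -0.12 at 0.19 µM fluticasone propionate. Their part in the hsd11b2 values was not tested.

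**Figure D2:**
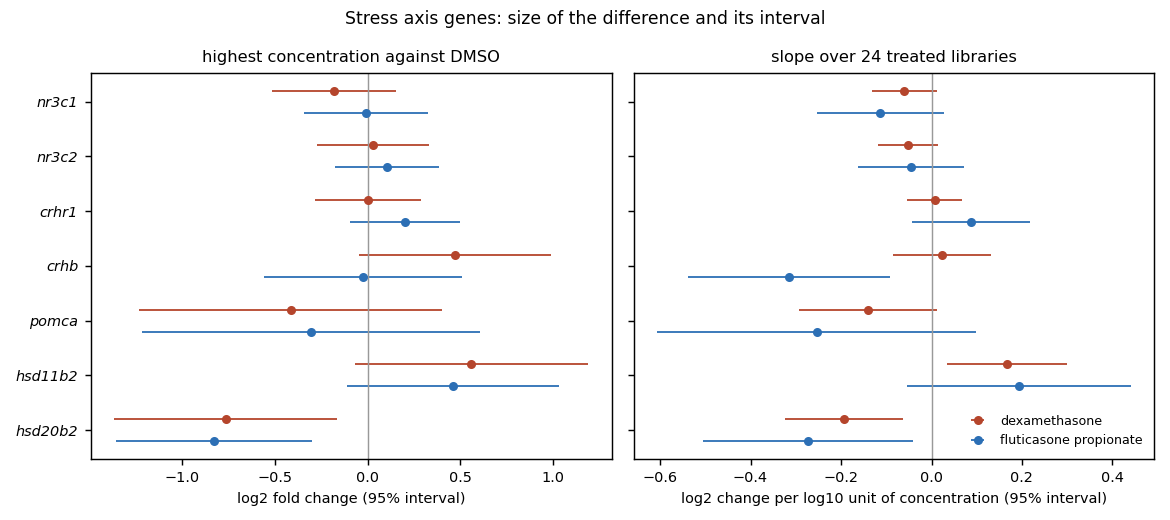
The left panel plots the log2 fold change at the highest concentration against DMSO and the right panel the slope in log2 units per log10 unit of concentration over the 24 treated libraries, each with its 95% interval, for dexamethasone (red, upper) and fluticasone propionate (blue, lower). For hsd20b2 both compounds' intervals lie below 0 in both panels before adjustment for multiple tests. For hsd11b2 the interval of the dexamethasone slope (0.17) lies above 0 before adjustment, and that of the fluticasone propionate slope (0.19) spans 0. For crhb the interval of the fluticasone propionate slope (-0.32) lies below 0 before adjustment, and that of the dexamethasone slope (0.02) spans 0. Differences in slope between the compounds were not tested.

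The hormone gene crhb had 17 to 52 reads per library, and the 3 DMSO libraries were close together. It measured 25.0, 24.9 and 22.9 CPM in dexamethasone at 25 µM and 21.7, 17.4 and 12.9 CPM in fluticasone propionate at 0.19 µM, against 18.2, 17.1 and 17.1 CPM in DMSO. The dexamethasone libraries were all above DMSO, and the fluticasone propionate libraries lay on both sides of it. The log2 fold change was 0.47 ± 0.26 for dexamethasone (adjusted p = 0.558) and -0.02 ± 0.27 for fluticasone propionate (adjusted p = 0.996), with intervals of -0.04 to 0.99 and -0.56 to 0.51.

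Dexamethasone means of crhb stayed between 21.1 and 24.3 CPM from 0.008 to 25 µM (SDs 1.01 to 8.93), and the slope was 0.02 ± 0.05 per log10 unit (adjusted p = 0.93). Fluticasone propionate means were 23.4, 23.5, 23.2, 23.3, 19.5, 15.8, 18.1 and 17.3 CPM (SDs 0.883 to 8.63), with a slope of -0.32 ± 0.11 (unadjusted p = 0.00652, adjusted p = 0.172). That slope kept its sign under all 11 alternatives, with adjusted p between 0.148 and 0.495. DMSO averaged 17.5 ± 0.658 CPM (SD, n = 3), from 32, 29 and 25 reads, the smallest SD of the 17 groups. It ranked 15 of 17, above fluticasone propionate at 0.19 and 0.06 µM. All libraries were above DMSO in 5 of 8 dexamethasone groups and in 3 of 8 fluticasone propionate groups (the 3 lowest concentrations). Of all gene comparisons 7.59% and 5.45% showed that. These 8 comparisons share their 3 DMSO libraries, whose small spread makes non-overlap easier. The summed level of 11 hypothalamic markers that matched a row, crhb among them, was 159.1 to 171.7 CPM at 25 µM dexamethasone and 138.2 to 165.6 CPM at 0.19 µM fluticasone propionate, against 120.1 to 158.0 CPM in DMSO. Of the 11, 7 reached 10 reads in a library. Most of the sum came from sst1.1 and npy, which averaged 89.5 and 33.4 CPM at 25 µM dexamethasone. The part of this sum in the crhb values was not tested.

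The hormone's receptor gene crhr1 had 79 to 163 reads per library. Its levels were 78.1, 79.9 and 75.5 CPM in dexamethasone at 25 µM and 89.9, 94.2 and 85.2 CPM in fluticasone propionate at 0.19 µM, against 90.1, 67.7 and 74.7 CPM in DMSO. Both treated groups overlapped with DMSO, and the 0.19 µM group had the highest mean of the 17, at 89.7 ± 4.53 CPM (SD, n = 3). Among all neighbours in the orders of the 7 genes, only the gap below this group was wider than the larger of the 2 SDs. Dexamethasone gave a log2 fold change of 0.00 ± 0.14 (adjusted p = 0.999) and fluticasone propionate 0.20 ± 0.15 (adjusted p = 0.831). The intervals, -0.28 to 0.29 and -0.09 to 0.50, span 0.821 to 1.22 times and 0.938 to 1.42 times the DMSO level. Dexamethasone means ran between 70.9 and 79.2 CPM and fluticasone propionate means between 71.5 and 89.7 CPM, against 77.5 ± 11.4 CPM in DMSO.

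The binding protein gene crhbp has no row under its symbol and counts as not measured. RefSeq's table pairs crhbp with a row listed only by gene number, which held 12 to 44 reads per library. That row had 11.01, 22.4 and 13.3 CPM at 25 µM dexamethasone and 17.6, 11.6 and 14.995 CPM at 0.19 µM fluticasone propionate, against 11.4, 14.1 and 12.3 CPM in DMSO. The log2 fold changes were 0.28 ± 0.30 for dexamethasone (adjusted p = 0.835) and 0.22 ± 0.32 for fluticasone propionate (adjusted p = 0.952). The second hormone gene, crha, likewise has no row under its symbol, and the row RefSeq pairs with it held 7 reads in all, at most 1 per library, so crhb is the only corticotropin-releasing hormone gene with usable counts.

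The corticotropin precursor gene pomca was the least precise of the measured genes, with 4 to 28 reads per library. It measured 9.01, 3.83 and 6.66 CPM in dexamethasone at 25 µM and 7.63, 6.98 and 6.96 CPM in fluticasone propionate at 0.19 µM, against 8.55, 2.94 and 15.8 CPM in DMSO. DMSO held both the lowest and the highest of these 9 values, so neither treated group stood apart from it. The log2 fold change was -0.41 ± 0.41 for dexamethasone (adjusted p = 0.817) and -0.31 ± 0.45 for fluticasone propionate (adjusted p = 0.953). The intervals, -1.23 to 0.40 and -1.22 to 0.61, leave levels from 0.426 to 1.32 times and from 0.43 to 1.52 times DMSO within range. Without replicate C of DMSO the estimates were 0.20 for dexamethasone and 0.32 for fluticasone propionate, of the opposite sign.

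Mean pomca levels over dexamethasone were 11.8, 9.68, 8.91, 11.3, 9.32, 8.30, 9.85 and 6.501 CPM (SDs 0.366 to 3.67), and over fluticasone propionate 10.1, 8.04, 11.4, 11.1, 8.63, 7.74, 7.92 and 7.19 CPM (SDs 0.384 to 6.42). DMSO, at 9.09 ± 6.43 CPM (SD, n = 3), ranked 9 of 17, and both highest concentrations were at the low end, ranked 17 and 16. Neither slope passed the test: -0.14 ± 0.08 per log10 unit for dexamethasone (adjusted p = 0.484) and -0.25 ± 0.18 for fluticasone propionate (adjusted p = 0.65). The summed level of 10 pituitary markers, pomca among them, was 30.3 to 38.5 CPM at 25 µM dexamethasone and 23.5 to 44.2 CPM at 0.19 µM fluticasone propionate, against 27.7 to 45.9 CPM in DMSO, and 6 of the 10 reached 10 reads in a library. Its part in the pomca values was not tested.

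The corticotropin receptor gene mc2r was not measured: it had 16 reads in all, spread over 13 of 51 libraries, with at most 2 in one. In the shallowest library, where mc2r had no reads, a count of 0 allows up to 2.28 CPM, counting error only. The deepest library held 2 reads of mc2r. Its highest group mean was 0.741 CPM, at 0.006 µM fluticasone propionate. Of 7 interrenal markers 6 matched a row and 0 of them reached 10 reads in any library, and their summed level was 3.50 to 5.11 CPM at 25 µM dexamethasone and 2.35 to 8.72 CPM at 0.19 µM fluticasone propionate, against 3.99 to 5.30 CPM in DMSO.

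The compounds were then compared directly at 3 pairs of groups with close measured concentrations, with p-values adjusted over all genes in each pair, and at the highest concentrations, which are not matched. None of the 28 tests of the 7 genes was called, where 0.086% of gene tests were, and 2 of 28 had an unadjusted p under 0.05, where 6.39% of gene tests did. At labels of 0.08 µM dexamethasone and 0.19 µM fluticasone propionate (measured 0.055 and 0.0597 µM), hsd20b2 had 24.6, 22.1 and 16.0 CPM with dexamethasone, against 7.63, 16.9 and 10.7 CPM with fluticasone propionate, which overlap by 1 library on each side. The difference was 0.83 ± 0.28 (95% interval 0.27 to 1.40, adjusted p = 0.214) in a comparison that called 0.344% of genes, and it was 0.51 once reads outside genes entered as a covariate. The other 6 genes differed by -0.37 to 0.30 there, the widest interval being that of pomca, -0.53 to 1.13.

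At 0.025 µM dexamethasone and 0.06 µM fluticasone propionate (measured 0.0189 and 0.0158 µM), crhb had 22.9, 23.8 and 25.0 CPM with dexamethasone, against 12.3, 14.2 and 21.0 CPM with fluticasone propionate. These libraries did not overlap, and the difference was 0.59 ± 0.28 (interval 0.04 to 1.14, unadjusted p = 0.0353, adjusted p = 0.999). At 0.008 and 0.019 µM (measured 0.0066 and 0.0072 µM) crhb differed by -0.05 ± 0.26, and the largest difference was that of hsd20b2, 0.50 ± 0.28 (adjusted p = 0.927). For both receptors the matched differences lay between -0.16 and 0.16, with intervals inside -0.49 to 0.50. At the highest concentrations 0.0% of genes were called by edgeR, 5.28% had an unadjusted p under 0.05, and the 7 genes differed by -0.20 to 0.50. Non-overlap in the 4 pairs was seen for crhb in 2 comparisons (dexamethasone higher, 5.66% of all gene comparisons) and for crhr1 in 1 (dexamethasone lower, 5.7%). Over the 7 genes these were 2 and 1 of 28 comparisons. The crhr1 case and 1 of the crhb cases were at the highest concentrations, which are not matched.

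Other genes of the pathway were taken from lists of named genes and are given at 25 µM dexamethasone and 0.19 µM fluticasone propionate, where 1.32% and 0.246% of all genes were called. Among 5 of 7 entries that matched in the list for corticotropin processing, 3 were tested and none was called. Of the 3, 2 (cpe and nr4a1) had an unadjusted p under 0.05 at 0.19 µM fluticasone propionate, where 7.61% of all genes did. The carboxypeptidase gene cpe, which trims prohormones, averaged 518.9 ± 40.1 CPM at 25 µM dexamethasone and 538.6 ± 28.9 CPM at 0.19 µM fluticasone propionate, against 459.5 ± 33.2 CPM in DMSO (SD, n = 3 each). The nuclear receptor gene nr4a1, which drives Pomc transcription in mammals, averaged 16.4 ± 2.07 CPM with dexamethasone and 19.5 ± 2.73 CPM with fluticasone propionate, against 11.4 ± 3.78 CPM in DMSO, with log2 fold changes of 0.54 ± 0.34 for dexamethasone (adjusted p = 0.639) and 0.78 ± 0.27 for fluticasone propionate (adjusted p = 0.378). In the list for the hormone's relatives 3 genes were tested and none called. The second hormone receptor, crhr2, read from a row listed by gene number, averaged 22.5 ± 8.25 CPM with dexamethasone and 18.3 ± 2.83 CPM with fluticasone propionate, against 27.9 ± 6.04 CPM in DMSO, with a log2 fold change of -0.62 ± 0.23 at 0.19 µM fluticasone propionate (adjusted p = 0.491). The peptide gene oxt averaged 6.65 ± 0.633 CPM with dexamethasone and 6.90 ± 2.75 CPM with fluticasone propionate, against 8.22 ± 1.20 CPM in DMSO.

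Of 11 entries in the list of melanocortin receptors and their accessory proteins, 10 matched a row and 3 were tested. These were mrap2a, asip1 and asip2b, so no receptor of the list was tested. Of the 3, asip2b rose at 25 µM dexamethasone, where 1.32% of all genes were called, and the others were not called. This gene belongs to the agouti family, whose peptides block melanocortin receptors. Its levels were 48.0, 38.3 and 40.0 CPM at 25 µM dexamethasone and 29.4, 25.6 and 42.3 CPM at 0.19 µM fluticasone propionate, against 23.4, 18.3 and 21.3 CPM in DMSO. All 6 treated libraries were above DMSO. Over all concentrations, 7.59% of gene comparisons with dexamethasone and 5.45% with fluticasone propionate had every library above DMSO. The gene is named because it was called on these values, so the separation adds no support. The dexamethasone group was 1.01 ± 0.22 higher on the log2 scale (adjusted p = 0.0047), a call lost without replicate A of that group (0.90, adjusted p = 0.068) or replicate B of DMSO (0.92, adjusted p = 0.0751). At 0.19 µM fluticasone propionate the value was 0.63 ± 0.26 (adjusted p = 0.53), and 0.39 without replicate C of that group (adjusted p = 0.899). The slope over dexamethasone was called, at 0.28 ± 0.06 per log10 unit (adjusted p = 0.00119), and was 0.24 and not called without the highest concentration or without the replicate C libraries, while that over fluticasone propionate was 0.34 ± 0.12 (adjusted p = 0.159). The accessory protein gene mrap2a averaged 13.2 ± 9.11 CPM with dexamethasone and 10.9 ± 3.90 CPM with fluticasone propionate, against 8.29 ± 1.73 CPM in DMSO, and the agouti gene asip1 8.11 ± 4.44 CPM with dexamethasone and 7.63 ± 2.67 CPM with fluticasone propionate, against 9.46 ± 3.76 CPM in DMSO.

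Of 6 tested genes in the list of corticosteroid conversion, none was called lower at 25 µM dexamethasone. Only srd5a2a was called higher there, against 1.32% of all genes called. It encodes a steroid reductase of the enzyme family that reduces testosterone and corticosteroids. Its levels were 38.0, 46.6 and 36.3 CPM at 25 µM dexamethasone and 34.7, 48.3 and 33.7 CPM at 0.19 µM fluticasone propionate, against 21.1, 13.0 and 24.0 CPM in DMSO. All 6 treated libraries were above all 3 DMSO libraries, and the treated groups overlapped with each other. Every library was above DMSO in 7.59% of all gene comparisons with dexamethasone and 5.45% with fluticasone propionate. As srd5a2a is named because it was called on these values, the separation adds no support. The log2 fold change was 1.06 ± 0.23 for dexamethasone (adjusted p = 0.0041) and 1.01 ± 0.25 for fluticasone propionate (adjusted p = 0.0721). The dexamethasone call was lost without its replicate B (0.95) or without replicate B of DMSO (0.84, adjusted p = 0.122), and the fluticasone propionate value was called when the 6 compared libraries were fitted alone (1.01, adjusted p = 0.00982) and without a filter on low counts (1.02, adjusted p = 0.00429). It was not called on leaving out any of the 6 libraries, with values of 0.79 (without replicate B of DMSO, adjusted p = 0.541) to 1.19.

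The slope of srd5a2a over dexamethasone was 0.27 ± 0.05 per log10 unit (adjusted p = 0.000609), and 0.20 and not called without the highest concentration. Over fluticasone propionate it was 0.35 ± 0.12 (adjusted p = 0.136), and 0.125 without the highest concentration (adjusted p = 0.851). At labels of 0.08 µM dexamethasone and 0.19 µM fluticasone propionate the difference between compounds was -0.98 ± 0.24 (adjusted p = 0.0401), lower with dexamethasone. That call was lost with the covariate of reads outside genes (-0.79, adjusted p = 0.208), without the libraries over 30% (-0.87), with the 6 libraries fitted alone (-0.97) and on leaving out any of 5 of the 6 libraries (-0.80 to -1.07). The carbonyl reductase gene cbr1l, named from the same list for its high mean CPM, averaged 44.9 ± 10.5 CPM with dexamethasone and 77.5 ± 3.93 CPM with fluticasone propionate, against 102.5 ± 21.6 CPM in DMSO, with a log2 fold change of -1.22 ± 0.32 at 25 µM dexamethasone that missed the threshold (adjusted p = 0.0665). The gene hsd11b1la averaged 29.0 ± 5.11 CPM with dexamethasone and 28.4 ± 1.60 CPM with fluticasone propionate, against 21.2 ± 0.632 CPM in DMSO, and was not called.

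**Figure D3:**
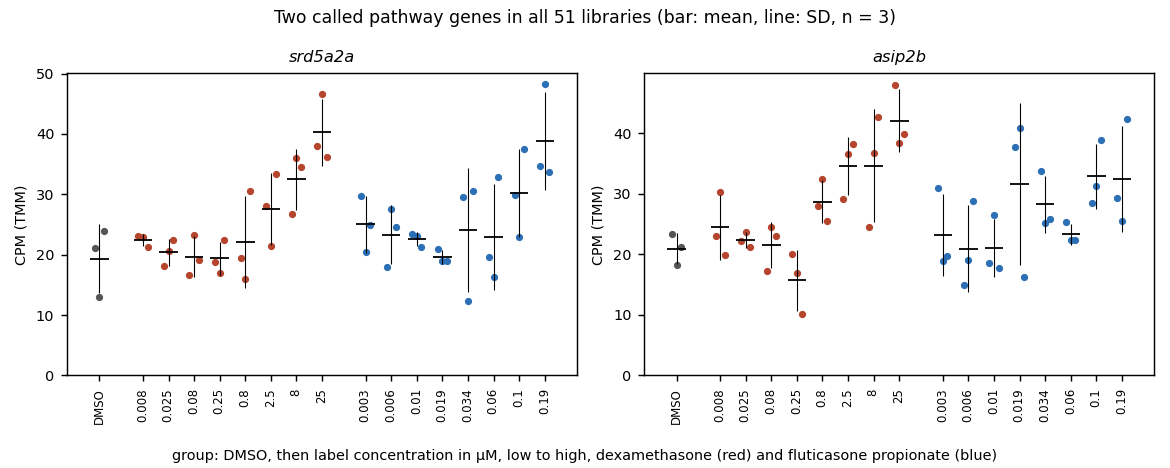
Levels of srd5a2a and asip2b in CPM, 1 point per library, in DMSO and at 8 label concentrations in µM of dexamethasone and of fluticasone propionate, low to high, with means as bars and SDs as lines (n = 3). At 25 µM dexamethasone srd5a2a lies at 36.3 to 46.6 CPM and asip2b at 38.3 to 48.0 CPM, above every DMSO library.

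The list of interrenal steroid synthesis had 17 entries, of which 14 matched a row, 6 were tested and none was called, where 1.32% of all genes were called at 25 µM dexamethasone and 0.246% at 0.19 µM fluticasone propionate. Its best-counted genes are used in many tissues. The lipoprotein receptor gene scarb1 averaged 48.1 ± 4.57 CPM with dexamethasone and 45.8 ± 8.13 CPM with fluticasone propionate, against 43.0 ± 4.18 CPM in DMSO (SD, n = 3 each). The ferredoxin gene fdx1, an electron carrier for mitochondrial steroid enzymes, averaged 31.3 ± 4.54 CPM with dexamethasone and 46.0 ± 6.80 CPM with fluticasone propionate, against 47.3 ± 3.92 CPM in DMSO, with a log2 fold change of -0.60 ± 0.20 at 25 µM dexamethasone (adjusted p = 0.145). None of the 5 other steroid receptor genes was called. The androgen receptor gene ar averaged 100.2 ± 11.2 CPM with dexamethasone and 92.4 ± 13.1 CPM with fluticasone propionate, against 88.7 ± 10.4 CPM in DMSO, and the estrogen receptor gene esr2a 25.2 ± 3.81 CPM with dexamethasone and 20.2 ± 6.40 CPM with fluticasone propionate, against 21.3 ± 1.46 CPM in DMSO.

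No marker list of the surrounding tissues held a called gene at either highest concentration or in either trend, with 2 tested genes for pituitary hormones, 4 for hypothalamic peptides and 7 for ionocytes. Of all genes 1.32% and 0.246% were called at those concentrations and 2.16% and 1.58% in the trends, dexamethasone first. The growth hormone gene gh1 averaged 9.92 ± 5.49 CPM with dexamethasone and 10.21 ± 4.07 CPM with fluticasone propionate, against 8.55 ± 1.92 CPM in DMSO, and the gonadotropin subunit gene fshb 8.10 ± 1.36 CPM with dexamethasone and 8.12 ± 4.63 CPM with fluticasone propionate, against 9.35 ± 3.04 CPM in DMSO. Somatostatin, sst1.1, averaged 89.5 ± 5.49 CPM with dexamethasone and 81.5 ± 13.4 CPM with fluticasone propionate, against 78.9 ± 17.4 CPM in DMSO, and neuropeptide Y, npy, 33.4 ± 5.72 CPM with dexamethasone and 25.1 ± 2.88 CPM with fluticasone propionate, against 26.8 ± 8.40 CPM in DMSO. The other hypothalamic genes tested, trh and gnrh3, were counted at few reads and had larger estimates at 0.19 µM fluticasone propionate, with log2 fold changes of 1.29 ± 0.48 for trh (unadjusted p = 0.00939, adjusted p = 0.478) and 0.95 ± 0.51 for gnrh3 (adjusted p = 0.703), neither of them called. They are named here after their values were seen. Among ionocyte genes, the proton pump gene atp6v1aa averaged 195.1 ± 18.3 CPM with dexamethasone and 203.8 ± 16.2 CPM with fluticasone propionate, against 172.2 ± 19.8 CPM in DMSO, and the carbonic anhydrase gene ca2 169.8 ± 10.03 CPM with dexamethasone and 163.2 ± 5.07 CPM with fluticasone propionate, against 160.6 ± 16.0 CPM in DMSO. At 0.19 µM fluticasone propionate 4 of the 7 ionocyte genes had estimates below 0, and the median slope of the 7 over fluticasone propionate was -0.18, with 3 of 7 at an unadjusted p under 0.05, where 11.4% of genes were. The median log2 fold change of the 7 stress axis genes was 0.00 at 25 µM dexamethasone and -0.01 at 0.19 µM fluticasone propionate, and the medians over all genes tested were 0.00 and -0.01.

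The genes whose group means tracked each stress axis gene most closely over the 17 groups were found among 13130 genes with a symbol and at least 5 CPM, by Pearson's r of log2 CPM. For nr3c1 they were nucks1a (0.901), prdx1 (0.875) and mgst3b (0.861), and for nr3c2 a predicted gene (0.781), fgf24 (0.777) and pold2 (0.75). For hsd20b2 they were acanb (0.825), tgm2l (0.822) and si:ch211-132f19.7 (0.806), and for hsd11b2 they included pks1 (0.803) and syt14b (0.773). For crhb they were pde1cb (0.831), hemgn (0.807) and ppp1r16b (0.786), for crhr1 isoc2 (0.802), csnk2a1 (0.782) and eif1axb (0.772), and for pomca med24 (0.846), col5a2a (0.824) and gpr142 (0.803). No stress axis gene was among another's 3. These values describe 17 means that share libraries and depth, chosen as the highest of many.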

How the data were processed

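QuantSeq libraries, made from the 3′ ends of messenger RNA with molecular identifiers, were sequenced from 51 homogenates of whole larvae, per the labels' protocols. Tools listed in the submitters' notes, with no role given, are edgeR, MultiQC 1.12, FastQC, HTSeq 2.0.1, STAR 2.7.10a and bcl2fastq 2.20.0. Genome build, strand setting and use of the identifiers are not given in the sources here, so tests and limits cover counted reads, and overlapping or antisense genes could not be separated. The authors deposited counts per gene in 1 table per compound, with identical DMSO columns, and log2 tables that were not used here. Rows that name no gene were kept out of library sizes and tests. They held reads in no counted feature (22.6 to 33.62%), reads with several alignments (10.58 to 12.2%), unaligned reads (6.94 to 8.77%) and ambiguous reads (0.59 to 0.8%).

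The filter on low counts was filterByExpr (minimum count of 10, minimum total of 15), scaling was by TMM, and tests were run with edgeR 4.0.16 in R 4.3.3 (robust quasi-likelihood F-test, Benjamini-Hochberg adjustment over all genes tested, threshold 0.05). A fit of 9 groups per compound used its 24 libraries with the 3 of DMSO. Slopes were fitted on log10 of the nominal concentration over each compound's 24 libraries, and all 51 libraries entered the direct comparisons. A standard error is the log2 value divided by the square root of F, and non-overlap of libraries was counted on CPM. All 7 measured genes passed the filter in every fit. Scripts were tested on simulated data. No library was a duplicate of another in its group: over 51 pairs, chi-square per degree of freedom was 1.511 to 3.431, above sampling noise. Names for genes listed only by number came from RefSeq's table of assembly fPimPro1.hap1.1, which matched 8751 of 17174.

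The genes, lists and tests were chosen with earlier results of these data known. From each list, genes with an adjusted p under 0.05 at either highest concentration or in either trend are named, with up to 2 others by highest mean CPM. The most similar genes are the 3 highest Pearson correlations of group mean log2 CPM (prior count 2), among genes with a symbol and at least 5 CPM; 1 of these genes is not reported here. Alternatives were RLE scaling, DESeq2 1.42.0, no filter on low counts, a replicate block, a covariate of reads outside genes, only the 6 compared libraries, measured concentrations, no highest concentration, leaving out libraries in turn and, chosen after seeing the data, no libraries over 30% reads outside genes. No sequences are shown.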

Additional observations from a re-analysis of the deposited data

How the results depend on the processing

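None of the 154 tests of the 7 genes was called under any alternative run (DESeq2 gave some of them no adjusted p). In the main form 0.387% of all gene tests were called. The lowest adjusted p of the 7 genes among all alternatives was 0.0797. It was for the slope of hsd20b2 over dexamethasone without the libraries over 30% reads outside genes. A correlation of deviations from group means was computed for each pair of libraries from different groups, both compounds together. Same-letter pairs had a median correlation of 0.005 (-0.193 to 0.251), with 26 of 408 over 0.1, against -0.003 for different letters, with 47 of 816. Letters did go with reads outside genes in most of the dexamethasone series. Replicate A had the highest share of its group at every dexamethasone concentration except 0.008 µM. Its share was 33.15, 32.62, 31.57, 33.62 and 30.83% at 0.025, 0.08, 0.25, 0.8 and 8 µM. At 2.5 and 25 µM it was 28.19 and 26.65%, with the next library of the group at 27.81 and 26.45%. Pairing by letter within the dexamethasone groups alone was not tested. A replicate block called 0 of the 154 tests, and with it srd5a2a at 0.19 µM fluticasone propionate was called (1.02, adjusted p = 0.0378). Counts over all genes were less steady. In the dexamethasone groups 748 calls became 1409 with the replicate block, 1463 with no filter, 1866 with the 6 compared libraries alone, 447 with the covariate of reads outside genes and 180 without replicate B of DMSO. In the fluticasone propionate groups 61 calls became 250 with no filter, 194 with the 6 libraries alone, 94 with the covariate and 23 without replicate B of DMSO. Slopes gave 387 and 279 calls, against 80 and 33 without the highest concentration, 126 to 304 and 92 to 120 without 1 replicate letter, and 420 for fluticasone propionate with the covariate. Direct comparisons gave 64 calls, against 292 with no filter, 30 without the libraries over 30% and 29 to 74 without 1 library.

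Values that changed sign were not called in either form. The covariate of reads outside genes gave -0.009 for nr3c2 and -0.019 for crhr1 at 25 µM dexamethasone and 0.097 for crhb at 0.19 µM fluticasone propionate. It also gave -0.069 for hsd20b2 in the pair 25 and 0.19 µM, -0.103 for crhb in the pair 0.08 and 0.19 µM, -0.1 for hsd20b2 in the pair 0.025 and 0.06 µM and 0.166 for crhb in the pair 0.008 and 0.019 µM (dexamethasone named first). Without the libraries over 30% reads outside genes, crhr1 was -0.009 at 25 µM dexamethasone, and the pairs gave -0.03 for nr3c1 and -0.022 for crhb (0.08 and 0.19 µM), -0.017 for hsd20b2 (0.025 and 0.06 µM), and 0.203 for crhb and -0.035 for crhr1 (0.008 and 0.019 µM). No filter on low counts gave 0.006 for nr3c1 at 0.19 µM fluticasone propionate, -0.003 for nr3c1 in the pair 0.08 and 0.19 µM and -0.002 for crhr1 in the pair 0.008 and 0.019 µM, where RLE scaling gave -0.005 and DESeq2 -0.006. The 6 compared libraries alone gave -0.003 for crhr1 at 25 µM dexamethasone, and its dexamethasone slope was -0.002 without the highest concentration. The cause of these changes was not tested.

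Leaving out 1 library at a time moved the log2 fold change at 25 µM dexamethasone over -0.09 to 0.172 for nr3c2, -0.841 to 0.195 for pomca and -0.087 to 0.133 for crhr1. At 0.19 µM fluticasone propionate it moved over -0.209 to 0.114 for nr3c1, -0.726 to 0.318 for pomca and -0.209 to 0.165 for crhb. Without 1 replicate letter the dexamethasone slope ran from -0.013 to 0.064 for crhb and from -0.0 to 0.014 for crhr1, and the fluticasone propionate slope from -0.113 to 0.028 for nr3c2. For the pair 25 and 0.19 µM the leave-one-out ranges were -0.347 to 0.031 (nr3c1), -0.15 to 0.005 (nr3c2), -0.265 to 0.273 (hsd11b2), -0.166 to 0.402 (hsd20b2) and -0.483 to 0.15 (pomca). The pair 0.08 and 0.19 µM gave -0.099 to 0.224 (nr3c1), -0.193 to 0.107 (nr3c2), -0.051 to 0.476 (pomca) and -0.018 to 0.584 (crhb). The pair 0.025 and 0.06 µM gave -0.154 to 0.086 (nr3c2), -0.105 to 0.153 (hsd20b2) and -0.086 to 0.036 (crhr1). The pair 0.008 and 0.019 µM gave -0.249 to 0.041 (nr3c1), -0.126 to 0.479 (pomca), -0.378 to 0.204 (crhb) and -0.155 to 0.213 (crhr1). Depth limits pomca, hsd11b2, hsd20b2 and crhb most, each with under 60 reads in every library.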
